A study of Mus musculus with 7 samples.

Results

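The genes described here are 44 genes that detoxify reactive oxygen and keep cellular thiols reduced, taken as a list of symbols and read in sorted pancreatic β-cells of diabetic mice with and without Aldh1a3. All 44 symbols were found among the 35013 of the count table. They comprise glutathione peroxidases, peroxiredoxins with sulfiredoxin, thioredoxins with their reductases, superoxide dismutases with catalase, the regulators NRF2 and KEAP1 with inducible targets, enzymes of glutathione synthesis and reduction, glutaredoxins, glutathione S-transferases, methionine sulfoxide reductases with DJ-1, and ferritin. The study compared poly-A RNA of β-cells in 3 groups of mice, Aldh1a3 KO_db/db (n = 2), db/db (n = 2) and db/+ (n = 3), with 1 library per mouse. KO_db/db mice were homozygous for a floxed Aldh1a3 allele and for the Lepr db mutation, which removes the functional leptin receptor and leads to obesity and diabetes. The db/db mice were also Lepr db/db but carried 1 floxed and 1 intact Aldh1a3 allele, and the lean db/+ mice carried 1 mutant Lepr allele and 1 floxed Aldh1a3 allele. KO_db/db and db/db are called the diabetic groups here by their Lepr genotype. The paper reports that fasting glucose of KO_db/db mice was close to that of db/+. Their refed glucose was lower than in db/db. Mice of all 3 groups carried RIP-Cre Herr, a Cre driven by an insulin promoter and active in β-cells, and a tdTomato reporter of its activity, so that 1 Aldh1a3 allele of the controls was also open to deletion in β-cells. The floxed line had been backcrossed onto db/db mice of the strain B6.BKS(D)-Lepr db/J, and genotypes of single mice at other loci are not given. The mice were adults that had been fasted before islets were isolated, and the labels give no age or sex for a single animal.

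β-cells are known for low levels of several enzymes that remove hydrogen peroxide, above all catalase. Peroxiredoxins and glutathione peroxidases reduce peroxides and are then reduced by thioredoxin or by glutathione, which thioredoxin reductase and glutathione reductase restore with NADPH. NRF2, encoded by Nfe2l2, is held in check by KEAP1 and, once released, binds the antioxidant response element in front of genes such as Nqo1, Gclm, Txnrd1, Srxn1 and the ferritin genes. Folding of proinsulin in the endoplasmic reticulum itself produces hydrogen peroxide, and Prdx4 is the peroxiredoxin of that compartment.

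Total counts ran from 27496645 to 35852785 per library, and 3 counts, taken as the detection floor, corresponded to 0.0717 to 0.123 CPM, the count scaled to the size of the library by the TMM method of edgeR. Aldh1a3, the deleted gene, was at 4.97 and 7.89 CPM in KO_db/db, 98.5 and 194 CPM in db/db and 0.205, 0.0730 and 0.589 CPM in db/+, and was lower in KO_db/db than in db/db (log2 fold change -4.50, SE 0.43, adjusted p = 0.0445). Ins1 and Ins2 took 21.8% to 36.1% of the counts in every library, and all 8 β-cell markers read exceeded the floor in every group. Genes of the exocrine acinar cell, a list of 24, made up 10.5% of counts in KO_db/db mouse 1 and 1.13% in KO_db/db mouse 2, but 0.0386% at most in the other 5. Transcripts of the mitochondrial genome took 7.36% and 8.50% in db/db, 7.22% and 11.3% in KO_db/db, and 12.1% to 21.3% in db/+. Y-linked genes had 2911 counts in db/+ mouse 3 and 20 to 79 in the other 6 libraries. That library thus stands apart from the rest of db/+ and from both diabetic groups in a measure tied to sex. The part of sex in the values below was not tested. In RNA of a sorted pool, fewer cells of a type and less RNA per cell cannot be told apart. Fold changes divide the first group named by the second and are given with the standard error (SE) and the Benjamini-Hochberg adjusted p of edgeR's quasi-likelihood test over all genes tested, and a gene with an adjusted p under 0.05 is said to be called. Taken alone, a gene measured in 2 mice per group could reach no two-sided exact permutation p smaller than 0.333.

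The antioxidant genes together took 0.307% to 0.455% of the counts of a library. Of the 44, 43 exceeded the floor in at least 1 library and 40 in all 7. The glutathione peroxidase homologue Gpx8 had at most 1 count in any library and was never tested. In db/db compared to db/+, 16 of the 42 tested were called (38.1%, against 37.8% of all genes tested), a share near the background. The groups did not overlap in 24 of these 42 (57.1%, against 63.3% of all genes). By direction, 3 of 42 were higher (7.14%, against 19.9% of all genes) and 13 were lower (31.0%, against 18.0%), the latter becoming 8 without db/+ mouse 1 and 7 without db/+ mouse 2. Calls over all genes, in either direction, fell as well in these 2 fits, from 5069 to 3331 and 3368. In KO_db/db compared to db/+, 14 of 42 were called (33.3%, against 38.4% of all genes), of which 5 were higher (11.9%, against 20.5%) and 9 lower (21.4%, against 17.9%), and 25 did not overlap (59.5%, against 64.1%). The 5 higher became 1 without db/+ mouse 1 and 3 without db/+ mouse 2 or 3, and the 9 lower became 4 without db/+ mouse 1. Calls over all genes fell here too, from 5081 to 3434, 3549 and 4725 without db/+ mouse 1, 2 and 3. In KO_db/db compared to db/db, 1 of 43 was called (2.33%, against 0.319% of all genes). It was lower (2.33%, against 0.193%), and none was higher, as 0.126% of all genes were, while 8 of 43 were below an unadjusted p of 0.05, as were 20.9% of all genes. The median log2 fold change over the list was -0.05, -0.13 and 0.10 in the 3 comparisons in that order, beside 0.01, 0.00 and -0.02 over all genes tested. The first 2 comparisons share the db/+ libraries and the last shares libraries with both, so their values are given side by side and not as independent results.

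The median absolute log2 fold change over the list was 0.31 in db/db and 0.30 in KO_db/db compared to db/+, and 0.24 between the diabetic groups, beside 0.50, 0.46 and 0.33 over all genes tested. The largest differences in db/db were the rise of Sod3, Gpx3 and Prdx4 and the fall of Nqo1, Ftl1 and Glrx. Of the 21 genes called in at least 1 comparison, 6 were lower in both diabetic groups than in db/+ (Prdx1, Prdx2, Prdx3, Gclm, Glrx and Park7), 2 were higher in both (Prdx4 and Sod3), and 7 were called only in db/db, all lower (Gpx4, Prdx6, Txn2, Nqo1, Glrx5, Fth1 and Ftl1). Gpx3 was higher in db/db and lower in KO_db/db, and the last 5 (Gpx1, Txn1, Txnrd1, Cat and Gclc) were called only in KO_db/db. Compared to db/+, 37.8% of all genes tested were called in db/db and 38.4% in KO_db/db, in fits that share the db/+ libraries. The share of all genes with each of these patterns was not counted, so the counts describe the list and are not set against a background. A call in 1 diabetic group and not in the other does not show that the groups differ, and the direct comparison of KO_db/db with db/db is given for each gene below.

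**Figure D1:**
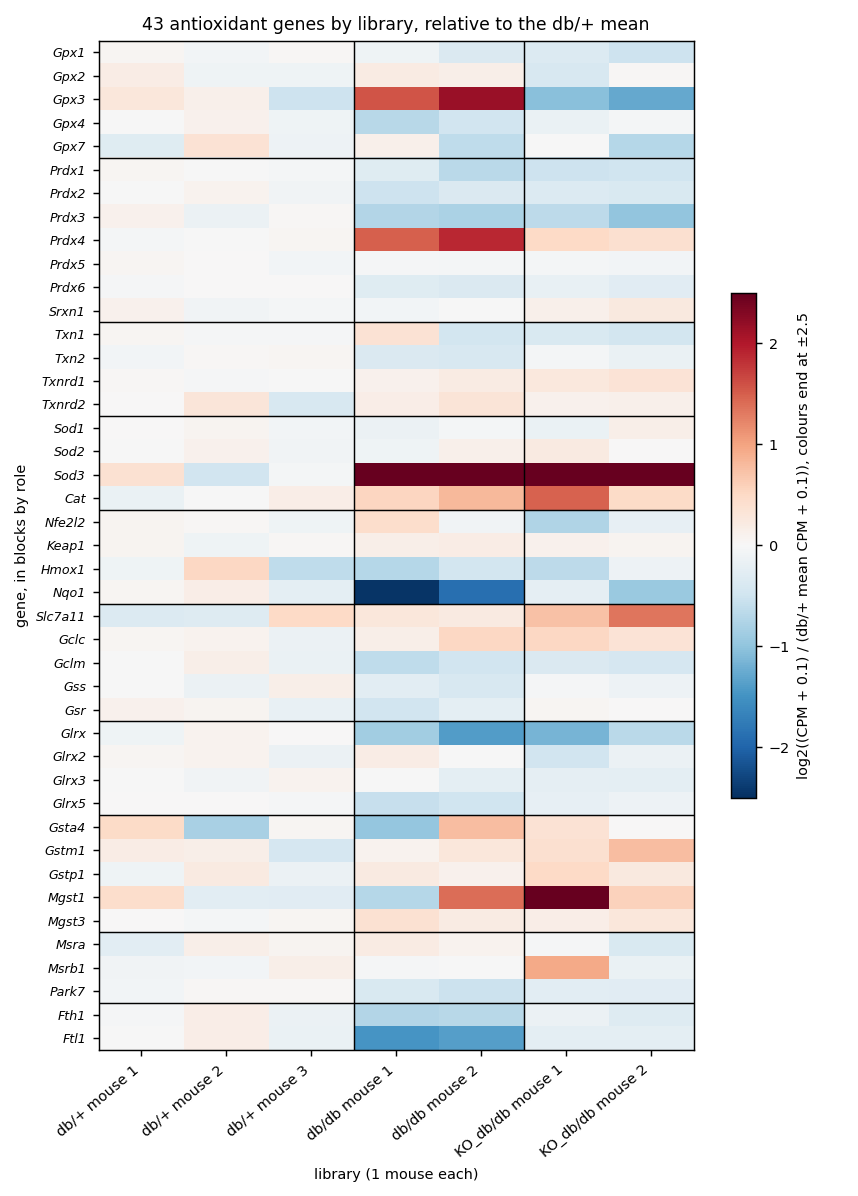
Heat map of 43 antioxidant genes (rows, in blocks by role) in the 7 libraries (columns, 1 mouse each), with colours giving log2 of (CPM + 0.1) over the db/+ mean CPM + 0.1 and ending at ±2.5. Most rows are pale in all libraries, while Gpx3 and Prdx4 were high in both db/db libraries and Ftl1 and Nqo1 were low there.

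Per length of transcript, the iron store ferritin led the list. In db/+, the light chain Ftl1 had a mean of 1891 CPM per kb and the heavy chain Fth1 had 741 CPM per kb, ahead of the cytosolic dismutase Sod1 at 272 and of Gpx3 at 267 CPM per kb. In db/db, Gpx3 took the first place with 998 CPM per kb, above Ftl1 at 703 and Fth1 at 453 CPM per kb. In KO_db/db the order of the first 4 was again that of db/+, with Ftl1 at 1603, Fth1 at 632, Sod1 at 270 and Gpx3 at 120 CPM per kb. The neighbours Sod1 and Gpx3 in db/+ stood at means that lie within the spread of Gpx3, whose 3 db/+ libraries ran from 193 to 337 CPM. Catalase, as Cat, was near the bottom of the order at 1.63 CPM per kb in db/+, with the cystine transporter Slc7a11 at 0.138 CPM per kb and Sod3 under the floor below it.

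**Figure D2:**
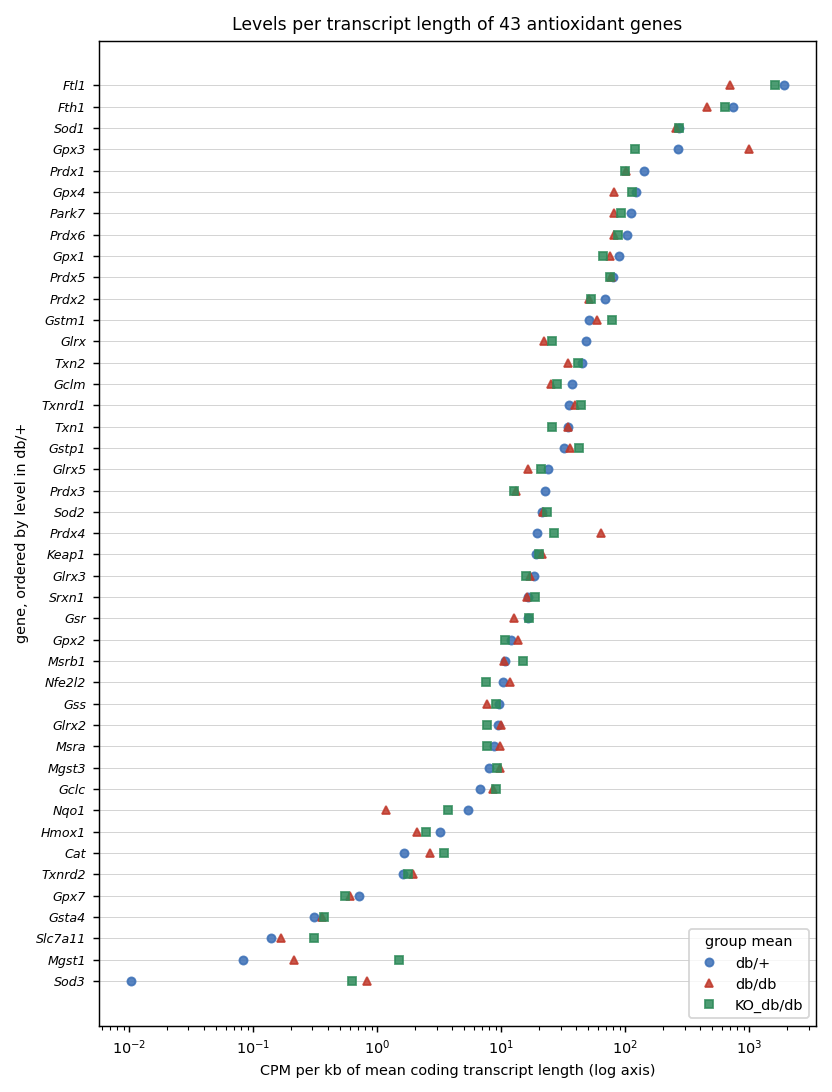
Mean level per kb of coding transcript (log axis) of 43 antioxidant genes in db/+, db/db and KO_db/db, ordered by the level in db/+. The db/db mark of Gpx3 lies to the right of all others in that group at 998 CPM per kb, and those of Ftl1 and Nqo1 lie left of both other groups.

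The core of the antioxidant response element, TGACNNNGC, was searched on both strands from 250 bases before to 50 bases after the transcript starts in RefSeq on GRCm38.p6. Of the 37 listed genes with such a window, 7 held it (18.9%), beside 3781 of 27025 genes of the table of windows (14.0%). The 7 sites are shown on the strand of the motif, which is the minus strand of the genome for each and that of the gene for Nfe2l2 only, with the core in capitals and 10 bases on each side, because they mark which listed genes carry the letters that NRF2 recognises close to the start. They lie at chr3:122245413-122245441 (Gclm), chr6:138140461-138140489 (Mgst1), chr2:75704885-75704913 (Nfe2l2), chr4:116685456-116685484 (Prdx1), chr16:90220696-90220724 (Sod1), chr2:152105542-152105570 (Srxn1) and chr10:82859104-82859132 (Txnrd1).
Gclm: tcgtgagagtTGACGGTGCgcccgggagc
Mgst1: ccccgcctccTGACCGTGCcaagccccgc
Nfe2l2: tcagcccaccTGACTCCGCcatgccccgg
Prdx1: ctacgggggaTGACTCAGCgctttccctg
Sod1: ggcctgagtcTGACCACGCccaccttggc
Srxn1: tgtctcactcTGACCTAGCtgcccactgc
Txnrd1: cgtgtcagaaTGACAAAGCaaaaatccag
Among these, Prdx1 and Gclm were lower in both diabetic groups than in db/+, Txnrd1 was higher in KO_db/db, and Srxn1, Sod1 and Nfe2l2 were called in none of the comparisons. Mgst1 was tested only in KO_db/db compared to db/db and was not called there. The windows of Nqo1, Ftl1 and Fth1, named above among NRF2 targets, held no match, and Gclc and Hmox1 had no window. The site of Srxn1 lies 28 bases after the start. A match of letters, or the lack of one in these windows, is a description and no evidence for or against binding. The 250 bases before the start of Gclm, which encodes the regulatory subunit of the enzyme that limits glutathione synthesis, are given as the setting of 1 such site (chr3:122245307-122245556, plus strand, core in capitals as read on the strand of the gene).
Gclm upstream: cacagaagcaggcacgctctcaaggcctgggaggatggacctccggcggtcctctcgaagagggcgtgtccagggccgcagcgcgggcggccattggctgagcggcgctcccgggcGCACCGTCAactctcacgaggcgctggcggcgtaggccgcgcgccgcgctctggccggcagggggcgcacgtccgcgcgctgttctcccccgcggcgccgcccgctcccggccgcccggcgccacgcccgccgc

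Glutathione peroxidases reduce peroxides at the expense of glutathione, and the 6 members did not move together. Gpx3, the secreted plasma form (ENSMUSG00000018339.11, chr11:54902453-54910377 on GRCm38), was at 337, 303 and 193 CPM in the db/+ libraries, 827 and 1246 CPM in db/db and 135 and 115 CPM in KO_db/db. The 3 groups did not overlap, with every db/db library above and every KO_db/db library below all 3 of db/+. Gpx3 rose in db/db compared to db/+ (log2 fold change 1.89, SE 0.27, adjusted p = 0.00299) and was lower in KO_db/db than in db/db by 8.32-fold (log2 fold change -3.06, SE 0.28, adjusted p = 0.0404). This was the only call of the list between the diabetic groups, and it was lost without db/db mouse 1 (log2 fold change -3.32, adjusted p = 0.0581), where no gene of the whole table was called and 1826 were at an unadjusted p under 0.05. Compared to db/+, Gpx3 was also lower in KO_db/db (log2 fold change -1.15, SE 0.24, adjusted p = 0.0116), a call lost without KO_db/db mouse 2 (adjusted p = 0.0560). The summed level of 8 macrophage markers was 56.0 and 73.9 CPM in db/db, 21.7 and 33.6 CPM in KO_db/db and 32.8 to 57.0 CPM in db/+, and that of 5 alpha cell markers was 2086 and 2528 CPM, 1180 and 1654 CPM, and 1068 to 1699 CPM in the same order. The 7 markers of stellate cells and fibroblasts summed to 1.35 and 2.77 CPM in db/db and 0.704 and 1.11 CPM in KO_db/db. In db/+ they ran from 0.401 to 0.942 CPM. Lum was under the floor in both db/db libraries, Col3a1 and Lum in KO_db/db, and Col3a1 and Pdgfra in db/+. Of the macrophage markers, Adgre1 was under it in KO_db/db, and Cd14 and Ptprc in db/+. The 6 ductal markers summed to 290 and 432 CPM in db/db, 282 and 346 CPM in KO_db/db and 186 to 202 CPM in db/+. The part of these cells in the difference of Gpx3 was not tested.

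Gpx4, which reduces lipid peroxides within membranes, was at 108, 117 and 101 CPM in db/+, 67.0 and 77.7 CPM in db/db and 97.0 and 105 CPM in KO_db/db. Both db/db libraries lay below all others, and Gpx4 was lower in db/db than in db/+ (log2 fold change -0.60, SE 0.12, adjusted p = 0.00960) but not called in KO_db/db compared to either group (adjusted p = 0.443 against db/+ and 0.167 against db/db). Gpx1, the main cytosolic form, was at 76.6, 70.4 and 75.6 CPM in db/+, 68.6 and 57.7 CPM in db/db and 58.8 and 51.6 CPM in KO_db/db. It was lower in KO_db/db than in db/+ (log2 fold change -0.42, SE 0.10, adjusted p = 0.0162), a call lost without KO_db/db mouse 2 or db/+ mouse 1 (adjusted p = 0.0778 and 0.0579). Gpx2 stood between 9.77 and 14.8 CPM and Gpx7, a peroxidase of the endoplasmic reticulum, below 1 CPM in every library, and neither was called.

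Peroxiredoxins reduce hydrogen peroxide through a reactive cysteine. Of the 7 genes of this group, 1 was called higher and 4 lower in db/db compared to db/+, and 1 higher and 3 lower in KO_db/db. Of all genes tested, 19.9% were higher and 18.0% lower in db/db, and 20.5% and 17.9% in KO_db/db. Prdx4 (ENSMUSG00000025289.15, chrX:155323918-155340754) was at 18.1, 18.6 and 19.2 CPM in db/+, 52.3 and 69.3 CPM in db/db and 26.5 and 24.7 CPM in KO_db/db. The groups did not overlap, and the KO_db/db libraries lay between the others, close to db/+. Prdx4 rose in db/db by 3.24-fold (log2 fold change 1.70, SE 0.14, adjusted p = 0.000698) and in KO_db/db by 1.38-fold (log2 fold change 0.47, SE 0.10, adjusted p = 0.0130) compared to db/+. The latter call was lost without KO_db/db mouse 1 or db/+ mouse 1 (adjusted p = 0.0634 and 0.0508). Between the diabetic groups the log2 fold change was -1.25 (SE 0.18), which edgeR did not call (adjusted p = 0.0835) and DESeq2, the test of the authors, did (adjusted p = 2.18e-06).

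The mitochondrial Prdx3 was at 35.7, 29.8 and 34.0 CPM in db/+, 20.0 and 19.1 CPM in db/db and 20.9 and 16.8 CPM in KO_db/db, and all 4 diabetic libraries were below all 3 of db/+. It was lower in db/db (log2 fold change -0.78, SE 0.13, adjusted p = 0.00487) and in KO_db/db (log2 fold change -0.81, SE 0.14, adjusted p = 0.00614) than in db/+, and kept both calls without any 1 library. The ratio of Prdx4 to Prdx3 in CPM was 0.507 to 0.624 in db/+, 2.62 and 3.62 in db/db, and 1.27 and 1.48 in KO_db/db, so that the 3 groups did not overlap. This ratio depends on no scaling between libraries.

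The cytosolic Prdx1 was at 149.8, 142 and 140.2 CPM in db/+, 116 and 90.5 CPM in db/db and 99.98 and 102 CPM in KO_db/db. Prdx1 was lower than in db/+ in db/db (log2 fold change -0.49, SE 0.13, adjusted p = 0.0270) and in KO_db/db (log2 fold change -0.51, SE 0.09, adjusted p = 0.00604). The call in db/db was lost without db/db mouse 2 (log2 fold change -0.33, adjusted p = 0.0846) and without db/+ mouse 1, 2 or 3 (adjusted p = 0.0937, 0.0753 and 0.0537). Prdx2, also cytosolic, was at 90.1, 97.3 and 86.4 CPM in db/+, 63.9 and 71.4 CPM in db/db and 71.6 and 69.7 CPM in KO_db/db, with all 4 diabetic libraries again below those of db/+. It was called lower in both (log2 fold change -0.44, SE 0.11, adjusted p = 0.0207 in db/db, and log2 fold change -0.36, SE 0.09, adjusted p = 0.0200 in KO_db/db). Single libraries decided these calls too, since the first was lost without db/db mouse 1 or db/+ mouse 1 or 2 (adjusted p = 0.0656, 0.0682 and 0.0793). The second was lost without KO_db/db mouse 1 or 2 or db/+ mouse 1 or 2 (adjusted p = 0.0722, 0.0732, 0.0593 and 0.0637).

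Prdx6, which reduces phospholipid hydroperoxides, was at 169, 173 and 173 CPM in db/+, 139 and 134 CPM in db/db and 150.4 and 142 CPM in KO_db/db, and was lower in db/db than in db/+ (log2 fold change -0.34, SE 0.10, adjusted p = 0.0321). The difference was small and the call was lost without any 1 of the 5 libraries (adjusted p = 0.0530 and 0.0831 without db/db mouse 1 and 2, and 0.104, 0.103 and 0.0710 without db/+ mouse 1, 2 and 3) and with no filter on low counts (adjusted p = 0.0690). Prdx5 stayed between 59.8 and 65.1 CPM in all 7 libraries, and sulfiredoxin (Srxn1), which restores overoxidised peroxiredoxins, between 43.7 and 54.7 CPM. Neither was called in any comparison.

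Thioredoxins reduce disulfides of peroxiredoxins and other proteins. The mitochondrial Txn2 was at 48.8, 52.1 and 52.9 CPM in db/+, 39.9 and 38.7 CPM in db/db and 49.3 and 46.0 CPM in KO_db/db, and the 2 db/db libraries were the lowest. Txn2 was lower in db/db than in db/+ (log2 fold change -0.39, SE 0.10, adjusted p = 0.0232), a call lost without db/db mouse 2 (adjusted p = 0.0585) or without db/+ mouse 1, 2 or 3 (adjusted p = 0.0577, 0.0845 and 0.0615). The cytosolic Txn1 was at 37.5, 35.4 and 35.1 CPM in db/+, 46.2 and 26.2 CPM in db/db and 27.6 and 26.2 CPM in KO_db/db. The 2 db/db mice lay on either side of db/+, and Txn1 was lower in KO_db/db (log2 fold change -0.41, SE 0.10, adjusted p = 0.0156) but without KO_db/db mouse 2 or db/+ mouse 1 no longer called (adjusted p = 0.0606 and 0.0577), nor with all 7 libraries in one fit (adjusted p = 0.171). Without db/db mouse 1, Txn1 was called lower in db/db as well (log2 fold change -0.47, adjusted p = 0.0303), and without db/db mouse 2 its log2 fold change was 0.34.

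Thioredoxin reductase Txnrd1, a selenoprotein and known NRF2 target, was at 95.8, 93.1 and 94.2 CPM in db/+, 102 and 109 CPM in db/db and 114 and 119 CPM in KO_db/db. It rose in KO_db/db compared to db/+ (log2 fold change 0.31, SE 0.08, adjusted p = 0.0228), by 1.24-fold. All 4 diabetic libraries were above the db/+ libraries, but the call was lost without KO_db/db mouse 1 or 2 (adjusted p = 0.0758 and 0.106) and without db/+ mouse 1 or 2 (adjusted p = 0.0713 and 0.0726). The mitochondrial Txnrd2 was between 1.73 and 2.89 CPM in all libraries and not called.

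Superoxide dismutases convert superoxide to hydrogen peroxide, and the extracellular form stood apart from the other 2. Sod3 (ENSMUSG00000072941.5, chr5:52363791-52371418) was at 0.0819, 0 and 0.0346 CPM in db/+, under the floor in all 3 libraries, at 3.23 and 2.96 CPM in db/db and at 2.01 and 2.69 CPM in KO_db/db. Every diabetic library was above every db/+ library, and Sod3 was called higher in db/db (adjusted p = 0.00145) and in KO_db/db (adjusted p = 0.00242). Against the highest floor of a db/+ library, 3 counts or 0.123 CPM, the mean was at least 25.2-fold higher in db/db and at least 19.2-fold higher in KO_db/db. The level was nonetheless low in all groups, and the diabetic groups were not called different (log2 fold change -0.39, SE 0.33, adjusted p = 0.525). The cytosolic Sod1 was between 154 and 192 CPM and the mitochondrial Sod2 between 62.4 and 78.4 CPM, with overlap of all 3 groups and no call.

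Catalase (Cat), the peroxisomal enzyme that splits hydrogen peroxide, was at 2.46, 2.74 and 3.12 CPM in db/+, 4.05 and 4.90 CPM in db/db and 7.84 and 3.91 CPM in KO_db/db. All 4 diabetic libraries lay above db/+, and KO_db/db mouse 1, the library with 10.5% acinar counts, was the highest. Compared to db/+, Cat was called higher in KO_db/db (log2 fold change 1.08, SE 0.33, adjusted p = 0.0400), but without KO_db/db mouse 1 the log2 fold change was 0.50 (adjusted p = 0.295). The call was also lost without db/+ mouse 1, 2 or 3 (adjusted p = 0.110, 0.103 and 0.0614). Compared to db/+, Cat was not called in db/db (log2 fold change 0.68, SE 0.25, adjusted p = 0.0696).

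Of the 4 genes grouped here, Nfe2l2, Keap1, Hmox1 and Nqo1, the inducible quinone reductase Nqo1 alone was called, in db/db compared to db/+, where 37.8% of all genes tested were called. Other NRF2 targets named above stand in other groups. Compared to db/+, Gclm was called lower in both diabetic groups, Ftl1 and Fth1 lower in db/db, and Txnrd1 higher in KO_db/db, while Srxn1 was not called. Nqo1 (ENSMUSG00000003849.8, chr8:107388225-107403206) was at 8.68, 9.45 and 7.13 CPM in db/+, 1.47 and 2.20 CPM in db/db and 7.14 and 4.39 CPM in KO_db/db. Both db/db libraries were below all others, while KO_db/db mouse 1 reached the lower end of db/+ and mouse 2 did not. Nqo1 fell by 4.60-fold in db/db compared to db/+ (log2 fold change -2.20, SE 0.27, adjusted p = 0.00176). It was not called in KO_db/db compared to db/+ (log2 fold change -0.55, SE 0.26, adjusted p = 0.133), except without KO_db/db mouse 1 (log2 fold change -0.93, adjusted p = 0.0481). In KO_db/db compared to db/db the log2 fold change was 1.64 (SE 0.39, adjusted p = 0.129 from edgeR and 0.0100 from DESeq2). NRF2 itself (Nfe2l2) was at 26.5, 25.8 and 23.6 CPM in db/+, 34.2 and 23.9 CPM in db/db and 14.9 and 22.0 CPM in KO_db/db, so that both KO_db/db libraries were the lowest, and its inhibitor Keap1 stayed between 51.9 and 63.2 CPM. Heme oxygenase 1 (Hmox1), another inducible target, was between 3.00 and 7.19 CPM. None of these 3 was called in any comparison (adjusted p = 0.0877 for Nfe2l2 in KO_db/db against db/+).

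Glutathione is made from glutamate and cysteine by the glutamate-cysteine ligase, whose catalytic subunit is Gclc and whose regulatory subunit is Gclm, and then by Gss. Gclm was at 65.1, 72.6 and 57.9 CPM in db/+, 41.8 and 46.6 CPM in db/db and 51.0 and 48.9 CPM in KO_db/db, all 4 diabetic libraries being below db/+. Gclm was lower in db/db (log2 fold change -0.57, SE 0.13, adjusted p = 0.0150) and in KO_db/db (log2 fold change -0.38, SE 0.12, adjusted p = 0.0401). The call in db/db was lost without db/db mouse 1 or db/+ mouse 1 or 2 (adjusted p = 0.0535, 0.0516 and 0.0537). That in KO_db/db was lost without KO_db/db mouse 1 or 2 or db/+ mouse 1 or 2 (adjusted p = 0.108, 0.128, 0.0977 and 0.104). Gclc, the catalytic partner, lay on the other side of db/+.

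Gclc was at 23.9, 24.3 and 20.8 CPM in db/+, 25.5 and 33.1 CPM in db/db and 33.1 and 29.2 CPM in KO_db/db, with every diabetic library above every db/+ library. It was called higher in KO_db/db (log2 fold change 0.44, SE 0.12, adjusted p = 0.0257), a call lost without KO_db/db mouse 1 (adjusted p = 0.126) or without db/+ mouse 1, 2 or 3 (adjusted p = 0.0603, 0.0524 and 0.0565), and also with all 7 libraries in one fit (adjusted p = 0.0557). In db/db it was not called (adjusted p = 0.123), except without db/db mouse 1 (adjusted p = 0.0386). The ratio of Gclc to Gclm in CPM was 0.335 to 0.367 in db/+ and 0.596 to 0.711 in the 4 diabetic libraries, which separates db/+ from the diabetic groups but not these from each other. Gss was between 9.13 and 13.5 CPM and glutathione reductase (Gsr) between 31.0 and 46.6 CPM, the latter lowest in both db/db libraries, and neither was called. The cystine transporter Slc7a11 was between 0.614 and 2.185 CPM and not called.

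Glutaredoxins remove glutathione from protein thiols. The cytosolic Glrx was at 47.3, 54.1 and 50.9 CPM in db/+, 27.7 and 19.1 CPM in db/db and 22.7 and 31.7 CPM in KO_db/db. All 4 diabetic libraries were below the lowest of db/+, while the 2 diabetic groups overlapped. Glrx fell in db/db (log2 fold change -1.13, SE 0.17, adjusted p = 0.00374) and in KO_db/db (log2 fold change -0.89, SE 0.16, adjusted p = 0.00664), and it kept both calls without any 1 library. Glrx5, a mitochondrial glutaredoxin of iron-sulfur cluster assembly, was at 44.2, 44.3 and 43.2 CPM in db/+, 29.6 and 30.9 CPM in db/db and 37.9 and 40.3 CPM in KO_db/db, and the 3 groups did not overlap. It was lower in db/db than in db/+ (log2 fold change -0.55, SE 0.10, adjusted p = 0.00721) and not called in KO_db/db compared to db/+ (log2 fold change -0.16, SE 0.09, adjusted p = 0.195) or to db/db (log2 fold change 0.37, SE 0.13, adjusted p = 0.216). Glrx2 was between 12.2 and 19.4 CPM and Glrx3 between 29.2 and 37.0 CPM, with no call.

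None of the 5 glutathione S-transferases was called, and Mgst1 was tested only in KO_db/db compared to db/db. Gstm1 had 38.5 to 58.4 CPM in db/+, 54.9 and 62.8 CPM in db/db and 68.0 and 87.7 CPM in KO_db/db, so that both KO_db/db libraries were the highest (log2 fold change 0.61, SE 0.20, adjusted p = 0.0503 in KO_db/db compared to db/+). Gstp1 was between 22.2 and 35.0 CPM and the microsomal Mgst3 between 8.32 and 11.3 CPM. Mgst1, also microsomal, was at 2.22 and 0.146 CPM in KO_db/db and at 0.335 CPM or less in the other groups. Its level in KO_db/db thus came from mouse 1, the library with the most acinar counts. Msrb1, a methionine sulfoxide reductase, was likewise at 21.6 and 9.95 CPM in KO_db/db, with mouse 1 above all other libraries, which were between 9.95 and 12.3 CPM. The part of acinar RNA in these values was not tested.

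Park7, which encodes the redox-sensitive protein DJ-1, was at 79.2, 84.8 and 85.3 CPM in db/+, 63.5 and 57.1 CPM in db/db and 69.2 and 68.5 CPM in KO_db/db. The 3 groups did not overlap, with db/db lowest. Park7 was lower in db/db (log2 fold change -0.47, SE 0.10, adjusted p = 0.0135) and in KO_db/db (log2 fold change -0.26, SE 0.08, adjusted p = 0.0452) than in db/+. The first call was lost without db/+ mouse 2 (adjusted p = 0.0543), and the second without any 1 of the 5 libraries (adjusted p = 0.140 and 0.126 without KO_db/db mouse 1 and 2, and 0.0777, 0.119 and 0.0884 without db/+ mouse 1, 2 and 3). The second was also lost under RLE scaling, with no filter on low counts and with all 7 libraries in one fit (adjusted p = 0.0538, 0.0766 and 0.0629). Msra, the other methionine sulfoxide reductase, was between 9.03 and 13.7 CPM and not called.

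Ferritin stores iron in a shell of heavy and light chains and so keeps it from generating hydroxyl radicals. Ftl1, the light chain (ENSMUSG00000050708.16, chr7:45457944-45459884), was at 1388, 1552 and 1232 CPM in db/+, 497 and 537 CPM in db/db and 1180.4 and 1178 CPM in KO_db/db. Both db/db libraries were far below the others, and the KO_db/db libraries were just under the lowest db/+ library. Ftl1 fell by 2.71-fold in db/db compared to db/+ (log2 fold change -1.44, SE 0.15, adjusted p = 0.00121), while in KO_db/db it was not called (log2 fold change -0.23, SE 0.17, adjusted p = 0.324). Between the diabetic groups the log2 fold change was 1.19 (SE 0.19, adjusted p = 0.0844 from edgeR and 4.73e-13 from DESeq2).

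Fth1, the heavy chain with the ferroxidase centre, was at 559.6, 639 and 521 CPM in db/+, 347 and 354 CPM in db/db and 518 and 459 CPM in KO_db/db. It was lower in db/db than in db/+ (log2 fold change -0.72, SE 0.13, adjusted p = 0.00698), kept that call without any 1 library, and was not called in KO_db/db compared to db/+ (adjusted p = 0.280) or to db/db (log2 fold change 0.48, SE 0.17, adjusted p = 0.212). The light chain changed more than the heavy chain, and the ratio of Ftl1 to Fth1 in CPM was 2.37 to 2.48 in db/+, 1.43 and 1.52 in db/db and 2.28 and 2.57 in KO_db/db. The ratio separated the db/db libraries from the other 5, which overlapped. kallisto shares reads among near-identical transcripts, and the part of this in the ferritin values was not tested. Ftl1-ps1, the best covered of the ferritin copies read, held 71 to 353 counts per library.

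**Figure D3:**
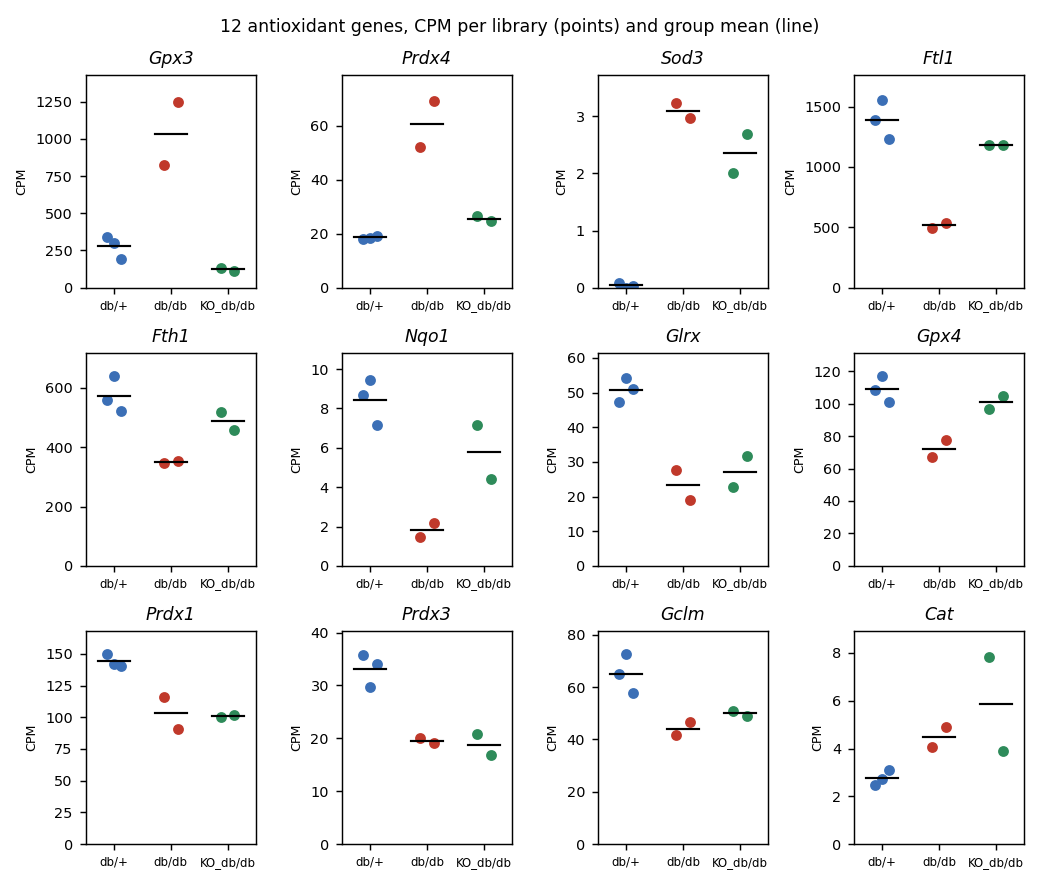
Level in CPM (linear axis from 0) of 12 antioxidant genes in db/+ (n = 3), db/db (n = 2) and KO_db/db (n = 2), with 1 point per library and a line at the group mean. In Gpx3, Prdx4, Ftl1, Fth1 and Nqo1 the db/db libraries stand apart from both other groups, while in Glrx, Prdx1, Prdx3 and Gclm all 4 diabetic libraries lie below db/+.

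The comparison of KO_db/db with db/db sets β-cells with Aldh1a3 deleted beside controls, both from Lepr db/db mice. Glucose also differed between mice of these genotypes in the paper, and its part in the differences was not tested. The groups did not overlap in 26 of the 43 genes tested (60.5%, against 57.5% of all genes), of which 16 were higher and 10 lower in KO_db/db, so a lack of overlap between 2 libraries and 2 others was common throughout the table. After Gpx3, the smallest unadjusted p-values were those of Prdx4, Ftl1 and Nqo1, each with an absolute log2 fold change above 1, and all of these differed between db/db and db/+ in the direction opposite to that between KO_db/db and db/db. Since both comparisons contain the db/db libraries, opposite signs are not independent results. How many of the listed genes were called depended on the test, with 1 under edgeR, 5 under DESeq2 (which called 1401 genes in all where edgeR called 43), and 4 when edgeR was fitted to all 7 libraries. The genes added were Prdx4, Ftl1 and Nqo1 and, under DESeq2, Fth1. Prdx1, Prdx2, Prdx3 and Gclm, lower in both diabetic groups than in db/+, had log2 fold changes between -0.06 and 0.17 in this comparison, and that of Glrx was 0.22.

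**Figure D4:**
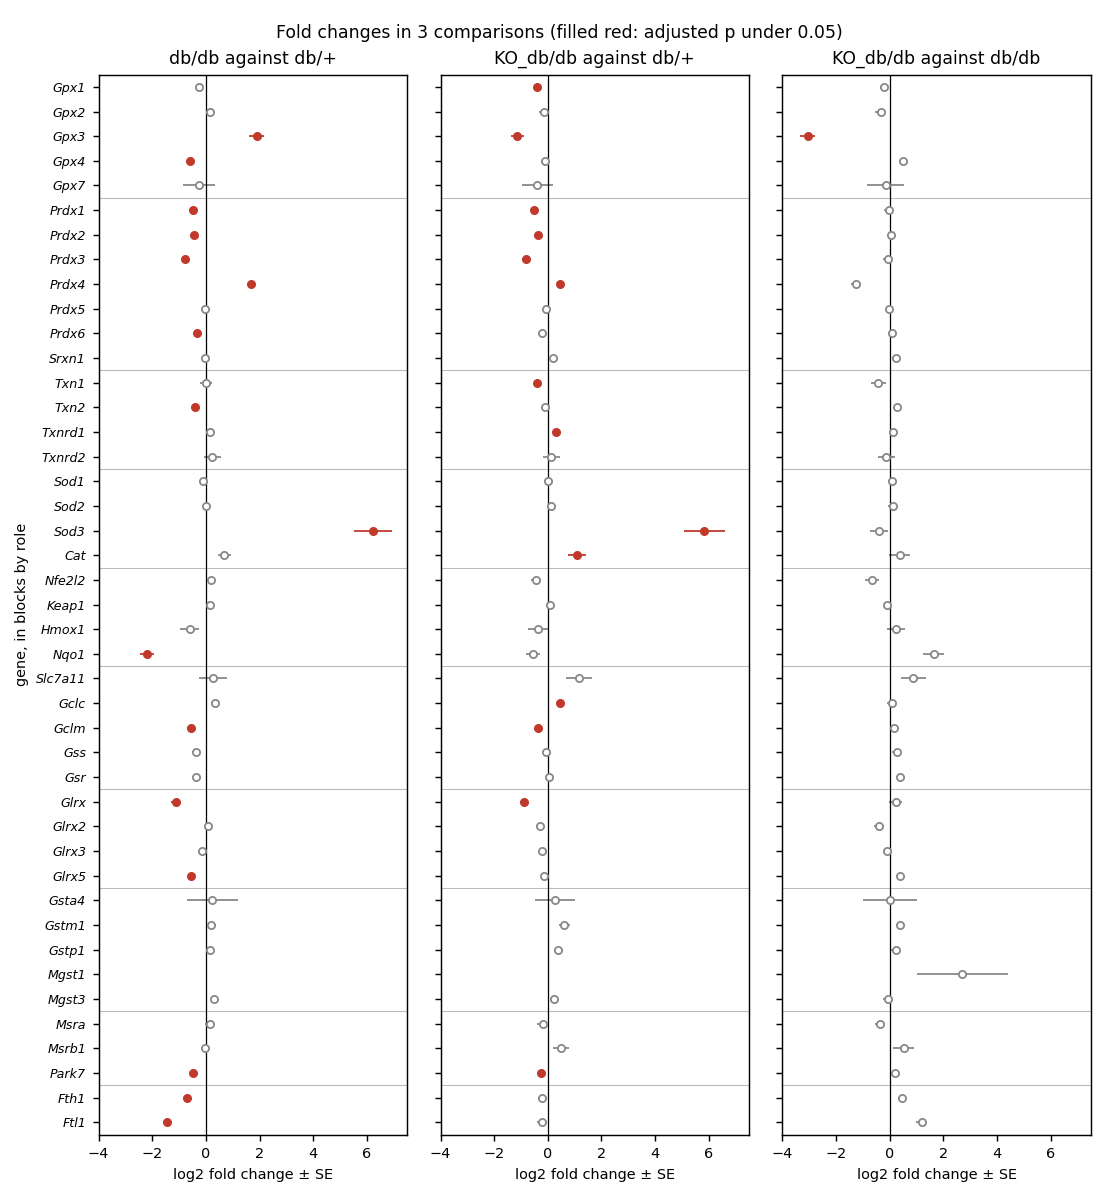
Log2 fold change with its SE of the antioxidant genes tested in db/db against db/+, KO_db/db against db/+ and KO_db/db against db/db, with genes in blocks by role and filled red points for an adjusted p under 0.05 from edgeR. The first panel holds 16 called genes, the second 14, and the third 1, which is Gpx3 at -3.06.

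The other 23 listed genes were called in no comparison, though Gpx8 was never tested and Mgst1 was tested only in KO_db/db compared to db/db. They were Gpx2, Gpx7, Gpx8, Prdx5, Srxn1, Txnrd2, Sod1, Sod2, Nfe2l2, Keap1, Hmox1, Slc7a11, Gss, Gsr, Glrx2, Glrx3, Gsta4, Gstm1, Gstp1, Mgst1, Mgst3, Msra and Msrb1. Sod1, the third most abundant per length in db/+, had log2 fold changes of -0.11, 0.00 and 0.09 in the 3 comparisons, with SE of 0.10, 0.12 and 0.17. Prdx5, a peroxiredoxin of mitochondria, peroxisomes and cytosol, had -0.05, -0.06 and -0.02, with SE of 0.10, 0.08 and 0.12. For the rare Gsta4, Gpx7, Slc7a11 and Mgst1, the SE ran from 0.46 to 1.70, so that their differences were measured with little precision at this depth and number of mice.

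Beyond the 44 genes, 138 others of redox metabolism, in 8 lists, were read in the same fits. In db/db compared to db/+, 56 of the 116 tested were called (48.3%, against 37.8% of all genes), 19 higher and 37 lower. Of all genes tested there, 19.9% were higher and 18.0% lower. In KO_db/db compared to db/+, 50 of 118 were called (42.4%, against 38.4%), 23 higher and 27 lower, beside 20.5% higher and 17.9% lower of all genes. In KO_db/db compared to db/db, 2 of 122 were called (1.64%, against 0.319%).

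Txnip, which binds thioredoxin and blocks it and is induced by glucose, was at 232, 145 and 209 CPM in db/+, 1803 and 1277 CPM in db/db and 393 and 119 CPM in KO_db/db. It rose 7.80-fold in db/db (log2 fold change 2.96, SE 0.24, adjusted p = 0.000681), whereas the KO_db/db libraries lay on either side of db/+ and differed more from each other than the db/+ libraries did (log2 fold change 0.39, SE 0.46, adjusted p = 0.525). Its log2 fold change in KO_db/db compared to db/db was -2.59 (SE 0.60, adjusted p = 0.124). Ero1b, the oxidase that passes electrons from protein disulfide isomerase to oxygen in β-cells, was at 2297, 1898 and 2463 CPM in db/+, 593 and 714 CPM in db/db and 1128 and 1246 CPM in KO_db/db. It was lower than in db/+ in db/db (log2 fold change -1.78, SE 0.19, adjusted p = 0.00114) and in KO_db/db (log2 fold change -0.90, SE 0.19, adjusted p = 0.0122), and so moved against Prdx4, which shares its compartment. Tmx3, another oxidoreductase of the endoplasmic reticulum, was lower in db/db too (log2 fold change -1.31, SE 0.13, adjusted p = 0.00108) and was also called lower in KO_db/db, each compared to db/+.

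Of 16 genes of NADPH supply, 6 were called in db/db compared to db/+, 2 higher (Pgd and Idh1) and 4 lower. Of all genes tested there, 37.8% were called, 19.9% higher and 18.0% lower. The 3 NADPH genes of largest change were lower. Nnt, the transhydrogenase of the inner membrane, was at 75.8, 79.1 and 88.6 CPM in db/+, 11.0 and 23.5 CPM in db/db and 49.3 and 60.7 CPM in KO_db/db. The 3 groups did not overlap, and Nnt fell in db/db (log2 fold change -2.24, SE 0.31, adjusted p = 0.00268) and less in KO_db/db (log2 fold change -0.55, SE 0.12, adjusted p = 0.0144), while the diabetic groups were not called different (log2 fold change 1.67, SE 0.37, adjusted p = 0.121). The genotype of the mice at the Nnt locus is not given, and its part in these differences was not tested. Idh2 was at 98.1, 98.4 and 92.8 CPM in db/+, 39.2 and 45.7 CPM in db/db and 52.2 and 61.7 CPM in KO_db/db, and Mthfd2, of mitochondrial folate metabolism, was at 46.9, 68.1 and 54.9, 18.4 and 19.7 and 18.2 and 23.1 CPM. Both were lower in db/db (log2 fold change -1.19, SE 0.12, adjusted p = 0.000960 for Idh2, and log2 fold change -1.58, SE 0.18, adjusted p = 0.00136 for Mthfd2). Idh2 and Mthfd2 were also called lower in KO_db/db compared to db/+.

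The 2 calls between the diabetic groups in these lists were Maob and Slc1a1. Maob, a mitochondrial monoamine oxidase that releases hydrogen peroxide, was at 208, 201 and 199.6 CPM in db/+, 38.1 and 32.7 CPM in db/db and 96.2 and 109 CPM in KO_db/db. It fell in db/db compared to db/+ (log2 fold change -2.53, SE 0.12, adjusted p = 0.000175) and was also called lower in KO_db/db compared to db/+. KO_db/db exceeded db/db (log2 fold change 1.54, SE 0.15, adjusted p = 0.0453). Slc1a1, a transporter of glutamate and cysteine, was at 0.205, 0.146 and 0.0693 CPM in db/+, 37.1 and 26.5 CPM in db/db and 0.493 and 1.55 CPM in KO_db/db. It rose in db/db from a level near the floor (log2 fold change 7.81, SE 0.32, adjusted p = 0.000105) and was also called higher in KO_db/db compared to db/+. Slc1a1 was lower in KO_db/db than in db/db (log2 fold change -4.87, SE 0.51, adjusted p = 0.0476). Both calls were among those lost without db/db mouse 1, when no gene was called.

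Among regulators of NRF2 targets, Bach2, a repressor that competes for the antioxidant response element, was at 0.246, 0.328 and 0.450 CPM in db/+, 5.26 and 4.88 CPM in db/db and 3.45 and 3.20 CPM in KO_db/db. It rose in db/db (log2 fold change 3.85, SE 0.35, adjusted p = 0.000849) and in KO_db/db (log2 fold change 3.26, SE 0.40, adjusted p = 0.00200), and the related Bach1 rose in db/db as well (log2 fold change 0.85, SE 0.17, adjusted p = 0.00996). Bach1 was also called higher in KO_db/db compared to db/+. Mafk, a small Maf partner of both NRF2 and BACH1, rose in KO_db/db compared to db/+ (log2 fold change 0.84, SE 0.11, adjusted p = 0.00249). Selenoprotein T (Selenot), an oxidoreductase of the endoplasmic reticulum, was at 350.3, 370.4 and 349 CPM in db/+, 144 and 116 CPM in db/db and 234 and 182 CPM in KO_db/db and was lower in db/db (log2 fold change -1.46, SE 0.13, adjusted p = 0.000839). Scly, the selenocysteine lyase, was lower in db/db (log2 fold change -1.36, SE 0.11, adjusted p = 0.000695), and Txnrd3, a thioredoxin and glutathione reductase, was higher in KO_db/db (log2 fold change 1.27, SE 0.19, adjusted p = 0.00414), each compared to db/+. Txnrd3 was also called higher in db/db, and Selenot was also called lower in KO_db/db, compared to db/+.

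In iron handling, ferroportin (Slc40a1), the iron exporter, was at 61.4, 65.3 and 24.9 CPM in db/+, 19.2 and 15.0 CPM in db/db and 9.12 and 6.29 CPM in KO_db/db. Slc40a1 was lower in db/db (log2 fold change -1.57, SE 0.41, adjusted p = 0.0232) and in KO_db/db (log2 fold change -2.72, SE 0.45, adjusted p = 0.00529) than in db/+. The lowest db/+ value, 24.9 CPM, was that of mouse 3, the library with 2911 Y-linked counts. How far the call in db/db rests on single libraries was not tested. Ncoa4, the receptor that delivers ferritin to lysosomes, and Ireb2, an iron-responsive RNA-binding protein, were lower in KO_db/db (log2 fold change -0.84, SE 0.17, adjusted p = 0.0109 for Ncoa4, and log2 fold change -0.61, SE 0.13, adjusted p = 0.0130 for Ireb2), calls lost without KO_db/db mouse 1 (adjusted p = 0.0614 and 0.0683). Ireb2 was also called lower in db/db compared to db/+. Unlike Ftl1 and Fth1, Slc40a1 was lowest in KO_db/db, with no overlap with db/db (adjusted p = 0.118 between these).

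Several of the other genes named by rule were highest in KO_db/db mouse 1. Ggt1, which splits extracellular glutathione, was at 28.1 and 2.45 CPM in KO_db/db, 0.264 and 0.359 CPM in db/db and 0.123, 0.0365 and 0 CPM in db/+, and Cth, which makes cysteine from cystathionine, was at 3.78 and 0.607, 0.4405 and 0.741 and 0.205, 0.401 and 0.208 CPM. Gsta3 was at 1.85 and 0.437, 0.206 and 0.502 and 0.164, 0 and 0.173 CPM and xanthine dehydrogenase (Xdh) at 1.44 and 0.340, 0.0587 and 0.574 and 0.164, 0.0365 and 0 CPM in the same order. Compared to db/+, all 4 were called higher in KO_db/db (adjusted p = 0.00531, 0.0295, 0.0475 and 0.0417 for Ggt1, Cth, Gsta3 and Xdh). Without KO_db/db mouse 1, Ggt1 stayed called (adjusted p = 0.0183), and the others did not (adjusted p = 0.391, 0.358 and 0.311). The calls of Cth and Gsta3 were also lost without any 1 db/+ library (adjusted p = 0.0860, 0.0602 and 0.0756, and 0.0888, 0.0773 and 0.0699), and that of Xdh without db/+ mouse 2 or 3 or with all 7 libraries in one fit (adjusted p = 0.113, 0.0726 and 0.0665). The part of acinar RNA in these was not tested.

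The last 3 were called in db/db compared to db/+, and of these Nos1 was also called higher in KO_db/db. Gsto2, an omega class transferase, was at 10.2 and 7.77 CPM in db/db and 3.07, 3.21 and 2.22 CPM in db/+ (log2 fold change 1.66, SE 0.24, adjusted p = 0.00322). Nos1, the neuronal nitric oxide synthase, was at 2.58 and 1.79 CPM in db/db and 0.573, 0.401 and 0.416 CPM in db/+ (log2 fold change 2.22, SE 0.44, adjusted p = 0.00887), a call lost without db/db mouse 1 (adjusted p = 0.0562). Gstt3, a theta class transferase, was at 0.147 and 0.120 CPM in db/db and 0.655, 0.620 and 0.762 CPM in db/+ (log2 fold change -2.33, SE 0.63, adjusted p = 0.0273), and this call was lost without any 1 of the 5 libraries (adjusted p = 0.0971 and 0.131 without db/db mouse 1 and 2, and 0.0600, 0.0553 and 0.0523 without db/+ mouse 1, 2 and 3) and with no filter on low counts (adjusted p = 0.0629).

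**Figure D5:**
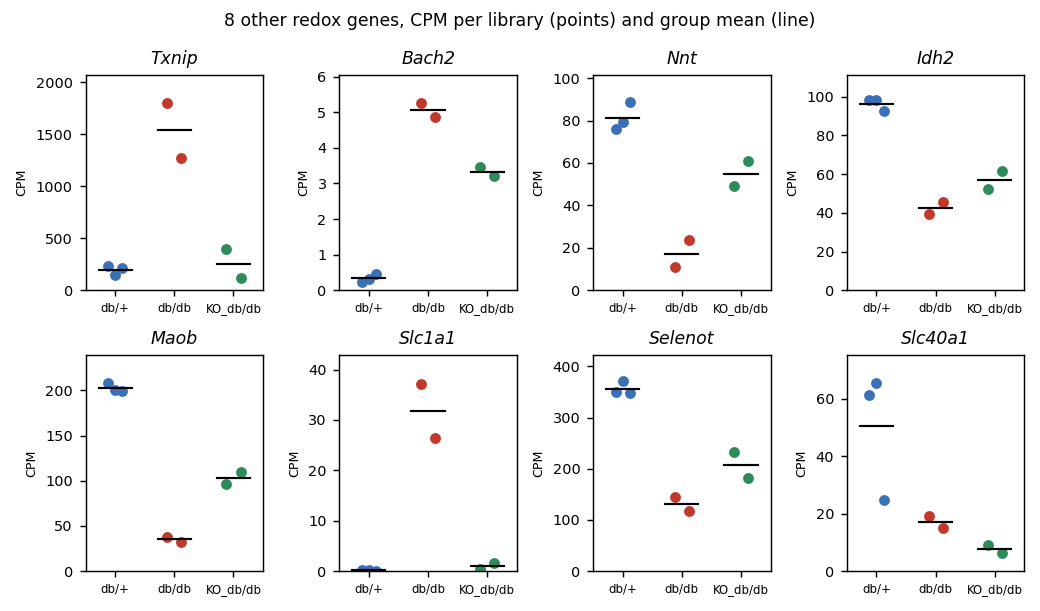
Level in CPM (linear axis from 0) of 8 redox genes outside the list in db/+ (n = 3), db/db (n = 2) and KO_db/db (n = 2), with 1 point per library and a line at the group mean. Txnip and Slc1a1 were high in both db/db libraries, and Nnt, Maob and Selenot were lowest there.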

How the data were processed

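Poly-A RNA of sorted β-cells from 7 mice was sequenced, and samples were grouped by the genotype and mouse number in their titles. The authors deposited estimated counts per gene, rounded to whole numbers and not normalized, made with bcl2fastq 2.19 and kallisto 0.44.0 on GRCm38 as the submitters' processing notes list them. The annotation release is not given in the sources used here. kallisto shares a read among the transcripts that it fits, so counts of near-identical genes are uncertain. No column of the table was left unused. Of 35013 symbols, 34222 matched GENCODE M21, whose mean coding transcript length gave levels per kb, and promoter windows came from RefSeq on GRCm38.p6, which held 37 of the 44 genes.

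From these counts, every comparison used only the libraries of its 2 groups, in R 4.3.3 and edgeR 4.0.16, using filterByExpr (minimum count 10), TMM scaling and the quasi-likelihood test with Benjamini-Hochberg adjustment at 0.05. The SE is the log2 fold change divided by the root of F. The test takes single mice as replicates and uses a dispersion moderated over all genes tested, so p-values do not rest on the spread of these few mice alone. Scripts were tested on simulated data. Libraries of a group differed beyond sampling noise, and none was counted as a copy. The members and lists were chosen with earlier results of these data known. Values per library are given for every listed gene called in at least 1 comparison and for the 4 with the smallest p between the diabetic groups, and from each of the 8 other lists for at most 3 called genes of largest change. The 4 of smallest p were among the genes called. Alternatives were DESeq2 1.42.0, RLE scaling, no filter, all 7 libraries in 1 fit, the mouse number as a block, acinar, Reg and insulin genes left out, and each library left out. Where that left 1 library in a group, it was assumed to vary like the other group.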

Additional observations from a re-analysis of the deposited data

How the results depend on the processing

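In KO_db/db against db/db, the number of listed genes called was 1 and became 5 with DESeq2, 4 with no filter on low counts, 4 with all 7 libraries in one fit, and 0 with the mouse number as a replicate block (Gpx3 at an adjusted p of 0.0904). The number of all genes called, 43, became 1401, 1570, 818 and 22 in the same order, and higher genes made up 53.9%, 51.2%, 61.6% and 40.9% of these calls in place of 39.5%. Leaving out each library gave 0 to 1 listed genes and 0 to 225 of all genes. The lowest values, 0 and 0, were those without db/db mouse 1, with 1826 genes at an unadjusted p under 0.05. The median over the list ran from -0.01 (without KO_db/db mouse 1) to 0.14 (without KO_db/db mouse 2). In KO_db/db against db/+, the listed genes called fell from 14 to 8 under the replicate block and to between 5 (without db/+ mouse 1) and 11 (without db/+ mouse 3) when a library was left out, with 3060 to 4725 of all genes in place of 5081 and a median of -0.157 to -0.0629. By direction, the 5 higher and 9 lower became 1 and 7 under the replicate block, 7 and 10 with DESeq2 and 7 and 8 with no filter. The block ended the calls of Prdx4, Txn1, Txnrd1, Gclc and Park7 (adjusted p = 0.0522, 0.0503, 0.0808, 0.0936 and 0.128), of Cth, Gsta3 and Xdh (0.173, 0.05004 and 0.0585) and of Cat in this comparison. In db/db against db/+ it ended those of Prdx6, Txn2 and Gstt3 (0.0860, 0.0773 and 0.102). In db/db against db/+, 10 to 15 listed genes in place of 16 and 3331 to 4394 of all genes in place of 5069 were called with a library left out, the lowest without db/+ mouse 2 and mouse 1, and the block gave 14 listed genes. The mouse numbers do not pair the samples, since the labels name no shared litter and deviations of same-numbered mice correlated between -0.14 and 0.10. Of the 936 alternative log2 fold changes of named genes, 604 belonged to calls, of which 511 stayed called, 93 were no longer called and none changed sign. Among values that were not called, 14 became called and 16 changed sign. In KO_db/db against db/db, with a library left out, Cat ran from -0.196 (without KO_db/db mouse 1) to 0.81, Gclc from -0.0937 (without db/db mouse 1, and -0.00791 without KO_db/db mouse 1) to 0.28, Glrx from -0.0434 (without KO_db/db mouse 2, and -0.0262 without db/db mouse 2) to 0.51, Prdx1 from -0.21 to 0.155 (without db/db mouse 1), Prdx2 from -0.0208 (without db/db mouse 1) to 0.14, Prdx3 from -0.22 to 0.0994 (without KO_db/db mouse 2) and Txn1 from -0.78 to 0.0328 (without db/db mouse 1). In db/db against db/+, Txn1 stood at -0.01, and at 0.00629 with DESeq2, 0.00546 with RLE scaling, 0.00484 with acinar, Reg and insulin genes left out, 0.00757 with all 7 libraries and 0.00340 with no filter, and with a library left out it ran from -0.47 (without db/db mouse 1) to 0.34 (without db/db mouse 2), passing 0.0243 without db/+ mouse 1. The cause of these shifts was not tested.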
